A study of Mus musculus with 13 samples.

Results

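The lungs of mice that carried a mammary tumor at a distant site were compared with lungs of mice without a tumor, gene by gene over the whole measured transcriptome. The comparison rests on 10 lung libraries of a series of 13; the other 3 libraries are of the mammary tumors. The lung libraries were chosen by their labels and come from 8 mice, 4 with a tumor (6877, 6879, 6880 and 6881) and 4 without (6886, 6887, 6888 and 6893). All were female mice of the inbred strain FVB, aged 10 weeks. Tumor-bearing mice had received an injection of 250000 Met1 cells, a mammary tumor line of the mouse, in an inguinal mammary fat pad at 8 weeks of age, and lung and tumor were taken 2 weeks later. All tumors came from this 1 line. Whether normal mice were injected with vehicle, and the hour at which tissue was taken, are not given in the sources used here.

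Preparation batch 1 held normal lungs 6886 and 6888 and tumor-bearing lungs 6879, 6880 and 6881. Preparation batch 2 held all 4 normal lungs and tumor-bearing lung 6877, so normal lungs 6886 and 6888 have a library in each batch. Each mouse was counted once in the test, these 2 by their batch 1 library. The test was edgeR's quasi-likelihood test with preparation batch as covariate, over 16727 of 46679 gene IDs, and a gene passed at a Benjamini-Hochberg adjusted p under 0.05. A difference is the fitted log2 difference, tumor-bearing minus normal, unless a batch is named. Values per library are in CPM, which is each count scaled to a fixed library total after adjustment by TMM factors. For batch 1 they are listed as normal 6886 and 6888, then tumor-bearing 6879, 6880 and 6881, and for batch 2 as normal 6886, 6888, 6887 and 6893, then tumor-bearing 6877.

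Lungs are a frequent site of spread of mammary tumors, and tumors are known to act on distant lungs before tumor cells arrive there, through secreted factors, stress hormones and myeloid cells that leave the bone marrow. Cells answer stress and hormones with fast transcription programs. Immediate early genes such as Fos and Egr1 are switched on within minutes of a stimulus. Heat shock chaperones are induced by the factor Hsf1 when proteins misfold, and genes such as Fkbp5 and Zbtb16 are induced by glucocorticoids. Many of these genes also follow the time of day and the handling of tissue.

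Libraries held 8321037 to 13982903 estimated counts. Protein-coding genes took 68.2 and 69.6% of the counts of normal lungs in batch 1, where tumor-bearing lungs had 49.0 to 59.0%; in batch 2 normal lungs had 47.0 to 54.7% and the tumor-bearing lung 45.6%. In a principal component analysis of the 10 lung libraries, component 1 (36.8% of the variance) placed the normal lungs of batch 1 at −13.9 and −9.34, the tumor-bearing lungs of that batch at −66.8 to −39.8 and all batch 2 libraries at 32.1 to 43.4. Component 2 (16.6%) placed the normal lungs of batch 1 at −46.9 and −51.8, tumor-bearing lung 6879 at 47.4 and the other 7 libraries at −1.38 to 16.9. Markers of lung cells were present in all 10 libraries: Sftpc of alveolar type 2 cells stood at 259 to 1275 TPM, a level per transcript length, Scgb1a1 of club cells at 776 to 2401 and Ager of alveolar type 1 cells at 45.6 to 155. The milk protein gene Csn3 stood at 26.9 to 53.5 TPM in the 3 tumors, at 0.0351 to 0.179 in tumor-bearing lungs and at 0.0273 to 0.2004 in normal lungs. The milk protein gene Wap was at 0 TPM in 9 lung libraries and at 0.00694 in tumor-bearing lung 6879. Bulk RNA cannot tell fewer cells of a type from less RNA per cell. The p-values measure the spread between these mice.

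Among 42 gene lists, the list of cytosolic heat shock chaperones had the lowest median difference. The lists were chosen with earlier results of these data known, so this rank is a description and not independent evidence. Of its 27 genes 25 had negative differences, with a median of −0.87 beside 0.01 for all genes tested, and 1 passed the test. Fos and Egr1, both transcription factors of the immediate early class, rose. The natriuretic peptide receptor Npr3, the Hsp90 cochaperone Chordc1 and the near-copies Gm15542 of Dnaja1 and Gm26825 of Hspa8 fell. Transcripts of neutrophils (Csf3r, S100a8, Il1b), splicing factors (Srsf5), glucocorticoid targets (Zbtb16, Fkbp5) and the clock genes Hlf and Cry1 missed the threshold after adjustment over all genes and are described by their values.

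In all, 2 genes passed as higher (0.012% of the genes tested) and 4 as lower (0.0239%). Of the 16727 genes tested 8619 had positive and 8108 negative differences. At an unadjusted p under 0.05 there were 1026 higher (6.13%) and 1316 lower genes (7.87%). The shares of all genes in this paragraph are the background for the counts of each list. DESeq2 on the same genes called 135 higher (0.807%) and 226 lower (1.35%). On all 10 lung libraries, limma voom with the mouse as a random effect called 11 of 17494 higher (0.0629%) and 28 lower (0.16%). The correlation between libraries of 1 mouse was 0.0284 in that fit, so repeated libraries counted almost as separate mice. Its calls and adjusted p-values, here and below, are therefore no independent support for genes that edgeR did not call. With no scaling factors the unadjusted counts were 457 higher and 2259 lower, and on log2 of TPM plus 1, where the median of all genes was −0.23, they were 54 and 6702. As a count that needs no model, the tumor-bearing libraries stood apart from the normal libraries within batch 1 and, the same way, within batch 2 for 843 higher (5.04%) and 1057 lower genes (6.32%) on the CPM scale. On the deposited TPM, a comparison added with these counts in view, 28 of the 843 and all 1057 were also apart in both batches. Of the 143 genes named by rule, 43 were apart as higher on CPM and 8 of these also on TPM. All 46 that were apart as lower were so on both scales. On log2 of TPM plus 1, however, 15614 of the 16727 genes had negative differences. A gene lower on CPM was thus nearly bound to be lower on TPM, so this overlap is no separate support for the lower genes. The calls depended on single mice: leaving out normal mouse 6886, or any of the tumor-bearing mice 6879, 6880 and 6881, left edgeR with 0 called genes, with 666 to 1034 higher and 846 to 1181 lower genes at an unadjusted p under 0.05.

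Cytosolic heat shock chaperones fold new proteins and hold damaged ones. Hsp70 proteins (Hspa8, Hspa1a, Hspa1b) work with J-domain proteins (Dnaja1, Dnajb1), and Hsp90 proteins (Hsp90aa1, Hsp90ab1) with cochaperones (Stip1, Ahsa1, Chordc1, Fkbp4). Small heat shock proteins (Hspb1, Hspb8, Cryab) bind unfolded proteins without ATP. The list of cytosolic heat shock chaperones holds 27 genes, all of them tested, and includes the mitochondrial chaperones Hspd1 and Hspe1 and the factor gene Hsf1. At an unadjusted p under 0.05, 22 were lower and 0 higher. edgeR called 1, DESeq2 16 and the fit of 10 libraries 10, all lower. For 20 of 27 the tumor-bearing libraries lay below all normal libraries in both batches. The median was −1.13 within batch 1 and −0.75 within batch 2, which share mice 6886 and 6888. With any 1 lung left out it was −1.09 to −0.78, and 20 to 22 members were lower at an unadjusted p under 0.05.

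Chordc1, which binds Hsp90, stood at 39.7, 43.1, 17.4, 18.1 and 14.4 CPM in batch 1 and at 40.0, 36.7, 26.6, 32.3 and 13 CPM in batch 2. All 4 tumor-bearing libraries lay below all 6 normal libraries, and the repeated libraries of the 2 normal mice differed by 0.01 and −0.23 on the log2 scale. Chordc1 fell by 1.27 on the log2 scale (SE 0.14, adjusted p = 0.0306, edgeR). Stip1, which hands client proteins from Hsp70 to Hsp90, stood at 86.3, 80.8, 21.9, 23.5 and 17.5 CPM in batch 1 and at 65.1, 62.5, 41.1, 62.2 and 30.3 CPM in batch 2. Groups did not overlap in either batch, and the difference was −1.55 (SE 0.25, adjusted p = 0.112, edgeR). Ahsa2, related to an activator of the Hsp90 ATPase, stood at 30.1, 28.0, 14.4, 9.71 and 9.55 CPM in batch 1 and at 20.1, 18.9, 17.5, 22.7 and 10.5 CPM in batch 2, again without overlap (difference −1.23, adjusted p = 0.112, edgeR). Cacybp, a cochaperone-like partner of the ubiquitin machinery, stood at 15.9 to 17.1 CPM in the tumor-bearing and 30.8 and 32.3 CPM in the normal lungs of batch 1, and at 12.6 against 20.6 to 34.4 CPM in batch 2 (difference −0.97, adjusted p = 0.112, edgeR). Ahsa1, the activator itself, stood at 20.7 to 22.7 against 55.9 and 57.8 CPM in batch 1 and at 30.9 against 38.2 to 49.2 CPM in batch 2.

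The stress-inducible Hsp70 genes had the most negative differences of the list and a wide spread. Hspa1b stood at 378, 427, 140, 44.7 and 16.5 CPM in batch 1 and at 266, 321, 97.0, 179 and 51.3 CPM in batch 2. Normal lungs spanned 97.0 to 427 CPM, and no normal library reached down to a tumor-bearing library of its own batch, while tumor-bearing lung 6879 of batch 1 lay above normal lung 6887 of batch 2. The difference was −2.17 (SE 0.57, adjusted p = 0.194, edgeR). Its neighbour Hspa1a, a near-identical gene, stood at 138, 186, 86.7, 19.0 and 9.77 CPM in batch 1 and at 113, 120, 36.1, 65.2 and 19.2 CPM in batch 2 (difference −1.85, adjusted p = 0.244, edgeR), and reads of the 2 genes can be split between them. Hsph1, which recharges Hsp70 with nucleotide, had −1.55 (SE 0.39), Dnaja1 −1.39 and Dnajb1 −1.12. The Hsp90 genes Hsp90aa1 and Hsp90ab1 had −1.08 and −0.87. Hspb1 had −1.17, and Hspd1 and Hspe1, chaperones of the mitochondrial matrix, −0.80 and −0.77. None of these 10 passed with edgeR (adjusted p = 0.116 to 0.244). Ahsa1 and all chaperones of this paragraph and the next except Hspb1 and Hsp90aa1 were named with their values in view.

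The exceptions were few. Ppid, a cyclophilin that binds Hsp90, had a difference of 0.44 (adjusted p = 0.417, edgeR) and Hsf1, which encodes the factor that induces these genes, 0.02 (adjusted p = 0.970, edgeR). Hsf1 stood at 16.7 to 22.2 CPM in all 10 libraries. Hspa4, Dnajb4 and Dnajb6 had −0.22, −0.29 and −0.17, with groups that overlapped in at least 1 batch. Together the 27 genes took 0.615 and 0.683% of protein-coding counts in normal lungs of batch 1 and 0.257 to 0.393% in its tumor-bearing lungs. In batch 2 they took 0.389 to 0.585% in normal lungs and 0.305% in the tumor-bearing lung, so the groups did not overlap within either batch. In the 3 tumors the share was 0.513 to 0.605%.

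**Figure D1:**
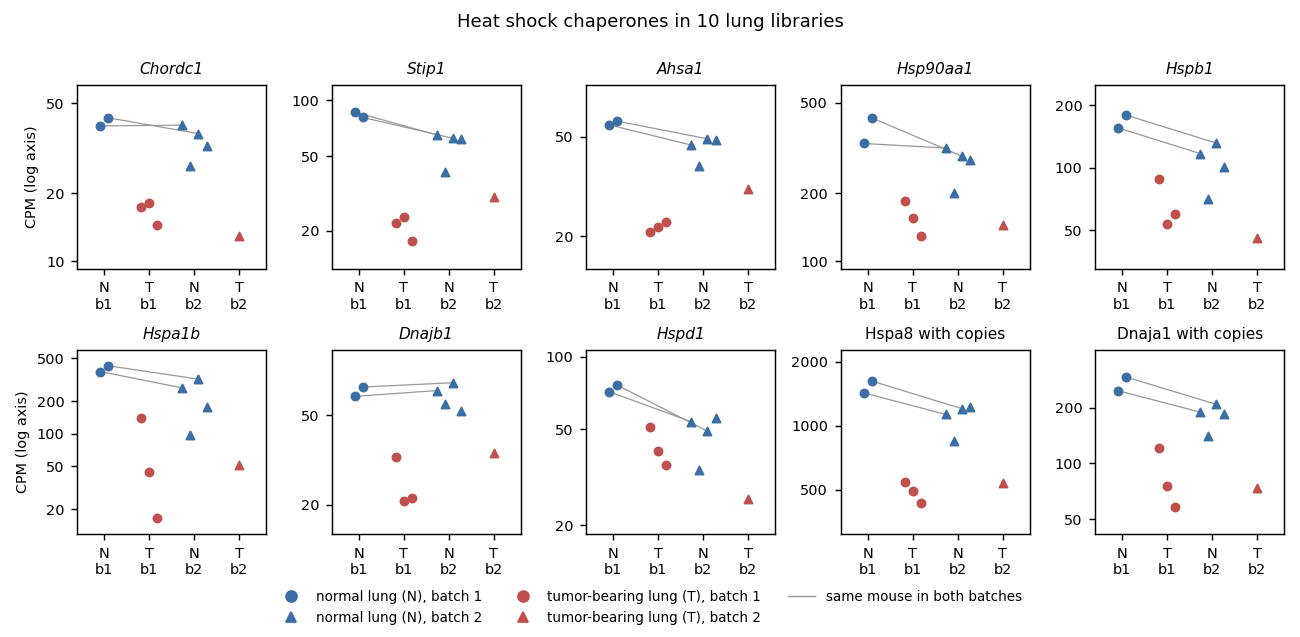
CPM on log axes of 8 heat shock chaperones, and of Hspa8 and Dnaja1 summed with their near-identical copies, in 10 lung libraries; N is normal and T tumor-bearing lung, b1 and b2 are the preparation batches, and grey lines join the 2 libraries of 1 mouse. Within each batch tumor-bearing lungs lie below normal lungs in all 10 panels, for Chordc1 at 13 to 18.1 against 26.6 to 43.1 CPM.

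Several chaperone genes have processed copies in the mouse genome, so the counts of single members are uncertain. BLAST of transcripts at 95% identity or more found 20 copies of 7 of the 27 genes. Gm15542, which fell, matches Dnaja1 over all 1194 of its bases at 99.4% identity, and Gm26825, which fell, matches Hspa8 over 1940 of 2026 bases at 99.6% on the opposite strand. Whether reads were counted by strand is not given in the sources used here. Hspa8 has 5 copies and Dnaja1 has 3. Summed with its copies, Hspa8 stood at 1429, 1624, 541, 494 and 433 CPM in batch 1 and at 1131, 1204, 845, 1223 and 538 CPM in batch 2. The 4 tumor-bearing libraries lay below all 6 normal ones, and the log2 ratio of the group means was −1.64 in batch 1 and −1.03 in batch 2. Dnaja1 with its copies stood at 246, 292, 121, 75.5 and 58.2 CPM and at 189, 208, 140.3, 183 and 74.0 CPM, again without overlap (log2 ratios −1.67 and −1.28). The 27 genes and 20 copies together stood at 4797, 5395, 2474, 1874 and 1734 CPM and at 3949, 4103, 2715, 3797 and 2013 CPM. The sums were added with the values of single members in view.

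Promoters of chaperone genes are bound by Hsf1 at heat shock elements. Windows of 250 bases before to 50 after the start of each gene, from RefSeq on GRCm38.p6, matched 21 of the 27 genes. The element's core, GAANNTTC, stood on either strand in 13 of the 21, beside 9.04% of 27025 genes. A match is a description of letters and not a bound site. Printed are the windows of the 2 members with the smallest p that hold the core, Chordc1 (chr9:18292017-18292316, plus strand) and Hspb1 (chr5:135887669-135887968, plus strand), with the cores in capitals. In Chordc1 the cores begin 4 bases before and 6 bases after the start and in Hspb1 117 and 97 bases before it; NN stands for any bases.
Chordc1: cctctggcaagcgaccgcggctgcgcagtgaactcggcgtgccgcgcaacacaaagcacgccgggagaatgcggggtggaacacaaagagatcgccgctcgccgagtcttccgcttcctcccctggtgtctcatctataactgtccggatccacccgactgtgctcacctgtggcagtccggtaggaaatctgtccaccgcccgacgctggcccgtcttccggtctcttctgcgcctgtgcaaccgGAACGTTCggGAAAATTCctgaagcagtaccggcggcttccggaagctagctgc
Hspb1: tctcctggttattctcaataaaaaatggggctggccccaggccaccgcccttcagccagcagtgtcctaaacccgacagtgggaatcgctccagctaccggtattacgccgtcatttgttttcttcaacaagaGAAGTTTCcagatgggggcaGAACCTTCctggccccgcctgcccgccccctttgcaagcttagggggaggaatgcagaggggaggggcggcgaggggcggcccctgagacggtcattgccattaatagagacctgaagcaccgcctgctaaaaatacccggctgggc
Stip1, Ahsa1, Ahsa2, Cacybp and Dnajb1, with differences of −1.55 to −0.97, hold no such core in their windows, and Hspa1a and Hspa1b hold 1 each.

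The endoplasmic reticulum has its own chaperones, induced by the unfolded protein response through the factors Atf6, Xbp1 and Atf4. Of 25 genes in the list of endoplasmic reticulum chaperones and unfolded protein response 22 had negative differences (median −0.38), 14 were lower at an unadjusted p under 0.05 and 0 higher, edgeR called 0 and DESeq2 6, and 12 stood apart as lower in both batches. The list's median was −0.51 in batch 1 and −0.25 in batch 2. Hspa5, the chaperone BiP, stood at 396, 408, 147, 172 and 139 CPM in batch 1 and at 268, 333, 235, 302 and 223 CPM in batch 2. In batch 1 no tumor-bearing lung exceeded 172 CPM and no normal lung was below 396 CPM, while in batch 2 the tumor-bearing lung was just below the lowest normal lung (difference −0.99, SE 0.21, adjusted p = 0.18, edgeR). Manf, a secreted protein of the same response, stood at 53.2, 56.8, 17.8, 26.2 and 16.8 CPM and at 52.0, 52.4, 45.5, 75.9 and 39.1 CPM (difference −1.15, adjusted p = 0.17, edgeR). Ddit3, the stress factor CHOP, had −0.87, Dnajb9 −0.71 and Creld2 −0.62. The large chaperones Hsp90b1, Canx and Hyou1 had −0.14, 0.17 and 0.01, with groups that overlapped, and were named with their values in view.

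The endoplasmic reticulum stress element, a composite motif bound by Atf6 with the factor NF-Y, stood in the windows of 8 of 22 matched genes of that list, beside 0.137% of all genes. None of the 22 held a heat shock element core, and none of the 21 cytosolic chaperone genes held the stress element. Printed are the windows of Hspa5 (chr2:34771840-34772139, plus strand) and Creld2 (chr15:88819396-88819695, plus strand), the members with the smallest p that hold the element, in capitals; it begins 65 bases before the start in Hspa5 and 126 before it in Creld2.
Hspa5: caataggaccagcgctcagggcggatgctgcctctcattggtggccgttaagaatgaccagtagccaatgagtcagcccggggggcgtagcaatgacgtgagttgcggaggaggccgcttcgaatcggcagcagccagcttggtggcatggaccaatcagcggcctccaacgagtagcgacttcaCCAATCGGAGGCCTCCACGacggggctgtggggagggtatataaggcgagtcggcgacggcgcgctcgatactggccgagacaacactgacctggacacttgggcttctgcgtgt
Creld2: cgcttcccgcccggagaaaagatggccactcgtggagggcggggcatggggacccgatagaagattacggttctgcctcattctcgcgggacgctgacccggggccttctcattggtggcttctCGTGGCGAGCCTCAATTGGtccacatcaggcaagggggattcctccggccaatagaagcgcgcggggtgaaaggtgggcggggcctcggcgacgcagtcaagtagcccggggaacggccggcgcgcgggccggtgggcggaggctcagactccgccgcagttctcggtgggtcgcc
Hsp90b1, Canx and Dnajc3, with differences of −0.14, 0.17 and −0.16, hold the element as well.

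Immediate early genes are transcribed without new protein synthesis, and most of their transcripts decay within the hour. Fos, a subunit of the factor AP-1, stood at 14.8, 10.9, 72.0, 59.7 and 65.7 CPM in batch 1 and at 18.2, 16.1, 11.5, 15.1 and 35.8 CPM in batch 2. No normal library exceeded 18.2 CPM and no tumor-bearing library was below 35.8 CPM. Fos rose by 2.03 on the log2 scale (SE 0.23, adjusted p = 0.0306, edgeR). Egr1, a zinc finger factor, stood at 24.7, 17.3, 66.1, 71.4 and 78.8 CPM and at 28.0, 18.6, 13.3, 13.9 and 37.2 CPM, and rose by 1.66 (SE 0.16, adjusted p = 0.0306, edgeR). The groups of Egr1 did not overlap within a batch on CPM, but on TPM they overlapped in batch 1, while those of Fos and Nr4a1 stayed apart in both. On log2 of TPM plus 1 the difference was 0.84 for Fos (adjusted p = 0.0674, limma) and 0.42 for Egr1 (adjusted p = 0.1, limma), so neither was called on that scale. Nr4a1, an orphan nuclear receptor, stood at 22.6, 17.9, 92.6, 44.7 and 49.1 CPM and at 22.4, 16.6, 15.3, 9.56 and 40.7 CPM, also without overlap (difference 1.65, adjusted p = 0.112, edgeR). Neither Fos nor Egr1 passed when normal lung 6886, or tumor-bearing lung 6879, 6880 or 6881, was left out.

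Other members of these families had smaller or mixed differences. Of 13 AP-1 factors 7 had positive and 6 negative differences (median 0.09, −0.06 with no scaling factors and −0.24 on log2 of TPM plus 1). At an unadjusted p under 0.05, 2 were higher and 2 lower. Junb stood at 66.0, 46.3, 118, 91.0 and 107 CPM in batch 1 and at 71.3, 54.5, 52.0, 51.6 and 59.9 CPM in batch 2, where the groups overlapped (difference 0.66, adjusted p = 0.218, edgeR). Maff, a small Maf protein, was lower in both batches (28.7, 25.5, 19.2, 12.4 and 8.36 CPM, then 25.0, 32.6, 27.3, 25.4 and 15.4 CPM; difference −0.95, adjusted p = 0.194, edgeR), Batf had −0.93, Jund 0.33, and Fosb and Jun, named with their values in view, −0.34 and 0.09. On TPM, tumor-bearing lungs lay below the normal lungs of their own batch for Jund. Of 6 tested Egr and Nr4a factors 5 had positive differences (median 1.22) and 4 were at an unadjusted p under 0.05. Egr3 had 1.31, Egr2 0.80 and Nr4a3 −0.88. Nr4a2 had 1.12, but in batch 2 it stood at 19.8 and 34.0 CPM in the repeated normal lungs 6886 and 6888 and at 0.852 to 2.10 CPM in the other 3 libraries, so the 2 repeated mice stood apart from the rest of that batch.

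Of 26 tested other immediate early genes 21 had positive differences (median 0.32, but −0.24 on log2 of TPM plus 1, where the median of all genes was −0.23), 9 were higher and 1 lower at an unadjusted p under 0.05, edgeR called 0 and DESeq2 2. Ccn1, a matrix signaling protein, stood at 91.1, 56.6, 128, 127 and 137 CPM and at 66.0, 38.8, 36.4, 50.6 and 73.4 CPM, apart in both batches on CPM but not on TPM (difference 0.80, adjusted p = 0.18, edgeR). Ier2 had 0.76, Nfkbiz, an inhibitor-like cofactor of NF-kappaB, 0.76, Klf2, a factor of quiescent endothelium, 0.66 and Btg2 0.53. On TPM, tumor-bearing lungs of batch 1 lay below its normal lungs for Klf2 and Btg2, and groups overlapped there for Ier2 and Nfkbiz. In batch 2 the tumor-bearing lung was highest on TPM for Klf2 and Nfkbiz. Egr1 had no matched promoter window and was not searched for motifs. The cAMP response element TGACGTCA stood in the promoter windows of 1 of 11 matched AP-1 factors, beside 2.03% of all genes. It stood in those of 0 of 5 matched Egr and Nr4a factors. The 1 gene is Maff (chr15:79347270-79347569, plus strand), whose value was negative; the element, in capitals, begins 29 bases before its start.
Maff: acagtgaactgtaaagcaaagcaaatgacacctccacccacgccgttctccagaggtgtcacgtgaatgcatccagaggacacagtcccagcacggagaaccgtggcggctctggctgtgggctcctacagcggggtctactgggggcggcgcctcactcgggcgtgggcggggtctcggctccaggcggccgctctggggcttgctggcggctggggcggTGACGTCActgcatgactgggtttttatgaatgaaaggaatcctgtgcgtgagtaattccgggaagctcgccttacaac

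**Figure D2:**
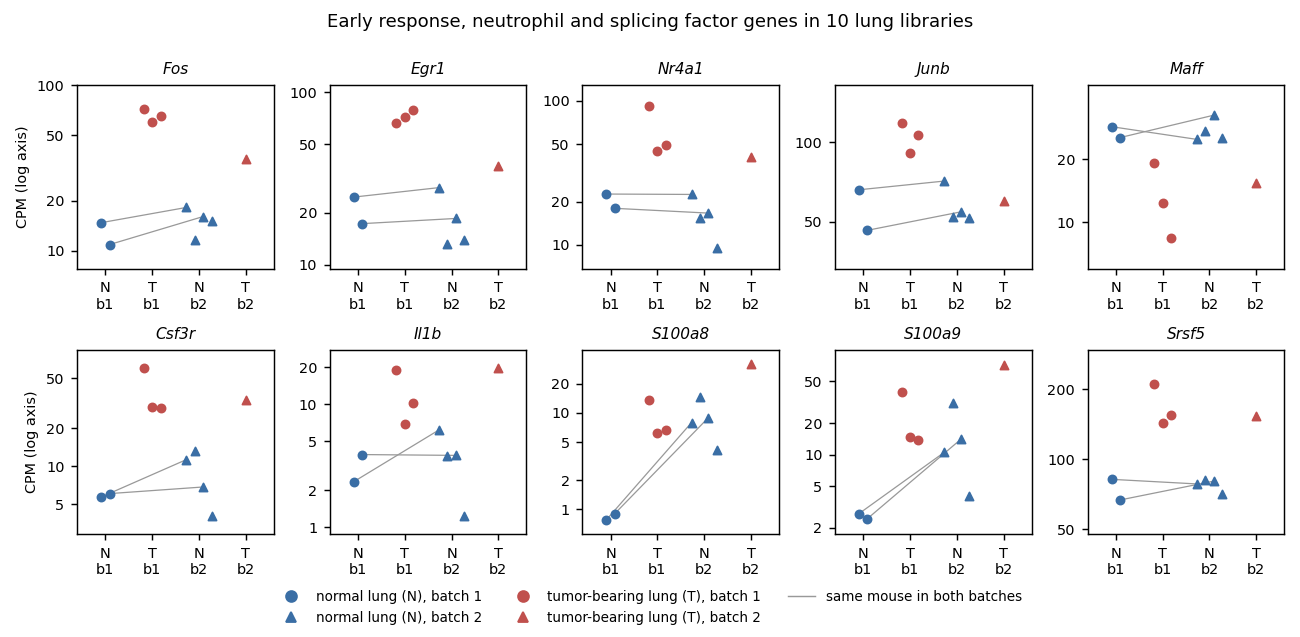
CPM on log axes of 5 early response genes, 4 genes of neutrophils and the splicing factor Srsf5 in the same 10 libraries and with the same symbols. Fos, Egr1, Nr4a1, Csf3r, Il1b and Srsf5 lie higher on CPM in tumor-bearing lungs of each batch (on TPM Egr1 and Srsf5 overlap in batch 1) and Maff lies lower, while S100a8 and S100a9 are at 0.781 to 2.73 CPM in the normal lungs of batch 1 and at 4.07 to 30.8 CPM in those of batch 2.

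SR proteins and Clk kinases set splice site choice, and the splicing of their own transcripts can change under stress. Of 25 SR splicing factors and Clk kinases 20 had positive differences, with a median of 0.22, against −0.36 on log2 of TPM plus 1. At an unadjusted p under 0.05, 8 were higher and 0 lower, edgeR called 0, DESeq2 2 and the 10-library fit 1. Srsf5 stood at 82.0, 66.9, 211, 143 and 156 CPM in batch 1 and at 78.4, 80.6, 81.2, 70.8 and 153 CPM in batch 2. The 6 normal libraries lay within 66.9 to 82.0 CPM and the 4 tumor-bearing ones within 143 to 211 CPM, and the difference was 1.12 (SE 0.16, adjusted p = 0.0910, edgeR). Its adjusted p was 0.0127 in the limma voom fit of 10 libraries. On TPM the groups of Srsf5 overlapped in batch 1, and the difference was 0.37 on log2 of TPM plus 1 (adjusted p = 0.325, limma). Srrm2, a large scaffold of nuclear speckles, had 0.67, Son, another speckle scaffold, 0.43, Srsf2 0.39 and Ccnl2 0.36. On TPM, however, tumor-bearing lungs of batch 1 lay below its normal lungs for Srrm2, Son, Srsf2 and Ccnl2. In batch 2 only Srrm2 among them was apart on TPM, as higher. Cirbp, an RNA-binding protein induced by mild cold, stood at 30.9, 16.7, 60.1, 35.8 and 37.0 CPM and at 26.1, 23.9, 28.9, 20.2 and 49.4 CPM, apart in both batches on CPM but not on TPM (difference 0.93, adjusted p = 0.203, edgeR). Rbm3, its partner in the cold response, had 0.31 and overlapped in batch 2.

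Glucocorticoids of the adrenal gland enter cells and bind the receptor Nr3c1, which induces a set of genes in nearly every tissue. Of 26 tested glucocorticoid targets 19 had negative differences (median −0.36; −0.55 within batch 1 and −0.16 within batch 2). At an unadjusted p under 0.05, 7 were lower and 1 higher, edgeR called 0, DESeq2 4 and the 10-library fit 1. Leaving out normal mouse 6888 brought the median to −0.13 and leaving out tumor-bearing mouse 6877 to −0.54, the extremes over 8 mice. Zbtb16, a zinc finger factor, stood at 148, 269, 51.7, 46.1 and 36.6 CPM in batch 1 and at 116, 183, 104, 145 and 48.9 CPM in batch 2. Tumor-bearing libraries lay at 36.6 to 51.7 CPM and normal ones at 104 to 269 CPM (difference −1.91, SE 0.25, adjusted p = 0.0638, edgeR; 0.0169 in the limma voom fit of 10 libraries). Fkbp5, a cochaperone that restrains the receptor, stood at 19.4, 44.2, 8.87, 8.85 and 6.74 CPM and at 17.2, 30.5, 18.1, 27.6 and 9.70 CPM. Its groups did not overlap either, and the difference was −1.71 (SE 0.29, adjusted p = 0.116, edgeR).

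Other targets differed less. Angptl4, an inhibitor of lipoprotein lipase, had −1.16, Klf15 −0.66, Tsc22d3, the leucine zipper protein GILZ, −0.71, and Hsd11b1, which regenerates active corticosteroid inside cells, −0.59. The receptor gene Nr3c1 had 0.09, with overlapping groups at 82.3 to 152 CPM. Dusp1, a phosphatase that is both a target of glucocorticoids and an immediate early gene, had 0.74, and the targets Sgk1, Per1 and Cebpd had −0.11, −0.03 and 0.04. Nr3c1, Dusp1, Sgk1, Per1 and Cebpd were named with their values in view. Normal lung 6888 was above normal lung 6886 in both its libraries for Zbtb16, Fkbp5, Tsc22d3 and Angptl4.

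Clock genes form a feedback loop with a daily rhythm in lung, in which Arntl with Clock or Npas2 activates Per and Cry genes that repress it. Of 15 core clock genes 5 had positive and 10 negative differences (median −0.14), 5 were lower and 1 higher at an unadjusted p under 0.05, and edgeR called 0. Cry1, a repressor, stood at 20.4, 21.8, 9.52, 11.5 and 10.9 CPM in batch 1 and at 15.7, 13.5, 11.2, 16.7 and 5.70 CPM in batch 2, apart in both (difference −1.08, adjusted p = 0.116, edgeR). Per2 had −0.79, Rora −0.36 and Bhlhe40 −0.44. Npas2 had 1.88, but at 0.390 to 3.84 CPM it lay near the lowest measured levels and its groups overlapped in batch 2. Of 11 tested clock output genes 9 were negative (median −0.29). Hlf, a PAR bZIP factor, stood at 126, 86.8, 44.2, 37.3 and 40.2 CPM and at 41.0, 67.0, 56.8, 53.6 and 30.3 CPM (difference −1.20, SE 0.16, adjusted p = 0.0730, edgeR). Its groups were apart in each batch, but normal lung 6886 stood at 126 CPM in batch 1 and 41.0 CPM in batch 2, a log2 shift of −1.61 between 2 libraries of 1 mouse. Dbp and Tef, factors of the same family as Hlf, had 0.20 and −0.18 with overlapping groups, and Per1, Per3, Cry2 and Nr1d1 had −0.03, 0.06, 0.01 and −0.20. These last 6 were named with their values in view. Tspan4, Usp2 and Wee1 had −0.37, −0.56 and −0.36. Among the clock genes the E-box CACGTG stood in the windows of 4 of 12 core and 3 of 10 output genes, beside 8.09% of all genes, and the D-box TTATGTAA in 1 of 12 and 1 of 10, beside 1.11%.

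**Figure D3:**
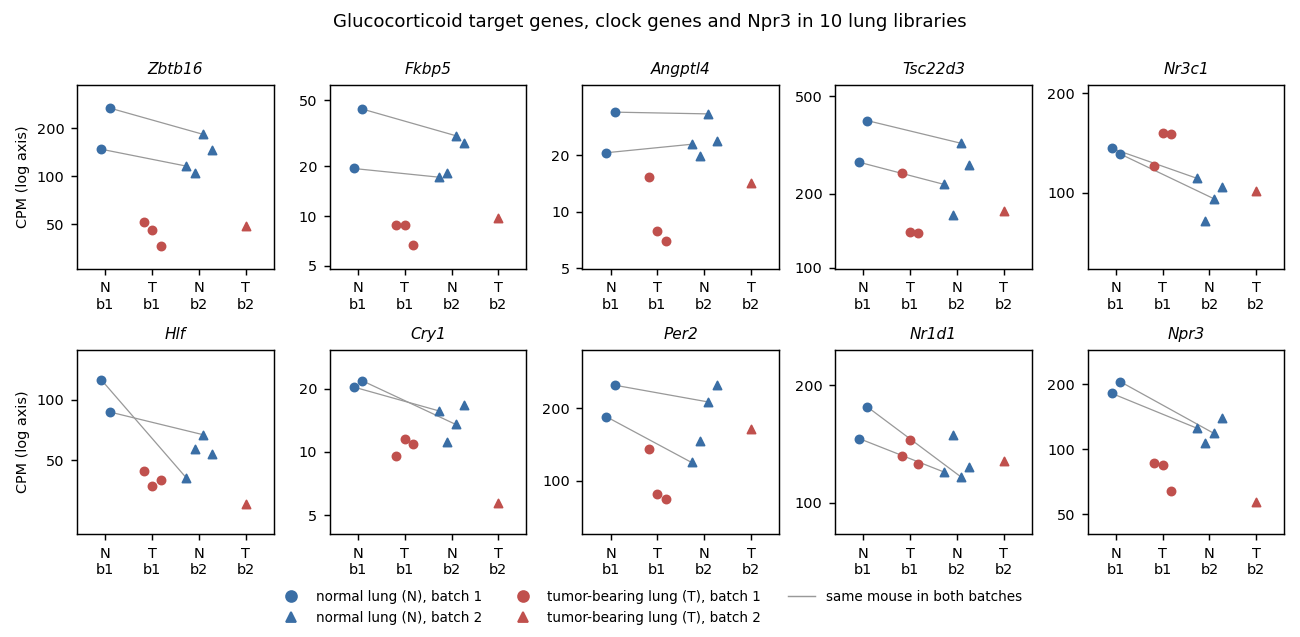
CPM on log axes of 4 glucocorticoid target genes, the receptor gene Nr3c1, 4 clock genes and Npr3 in the 10 libraries, with the same symbols. Zbtb16, Fkbp5, Angptl4, Hlf, Cry1 and Npr3 are lower in tumor-bearing lungs of each batch, and Nr3c1 and Nr1d1 overlap.

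Npr3 clears natriuretic peptides from the circulation and is abundant in lung vessels. It stood at 181, 205, 85.9, 84.8 and 64.0 CPM in batch 1 and at 125, 118, 106, 139 and 56.6 CPM in batch 2. The highest tumor-bearing library was at 85.9 and the lowest normal one at 106 CPM, and Npr3 fell by 1.24 on the log2 scale (SE 0.15, adjusted p = 0.0380, edgeR). Of the signaling receptors of the same peptides, Npr1 had 0.25 (adjusted p = 0.418, edgeR) and Npr2, named with its value in view, −0.13. Of 16 tested genes of natriuretic, endothelin and angiotensin signaling 14 had negative differences (median −0.21), 3 at an unadjusted p under 0.05. Edn1, the vasoconstrictor endothelin, stood at 26.0, 38.2, 7.07, 16.2 and 12.4 CPM and at 22.9, 21.2, 6.51, 35.4 and 12.5 CPM, overlapping in batch 2 (difference −1.18, adjusted p = 0.318, edgeR). Ramp2, a subunit of the adrenomedullin receptor, had −0.51 and the angiotensin converting enzyme gene Ace −0.37. The peptide genes Nppa, Nppb and Nppc were below the filter on low counts.

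Endothelial genes mark the capillary bed that makes up much of the lung. Of 26 endothelial genes 20 had negative differences (median −0.24), and 8 were lower and 0 higher at an unadjusted p under 0.05. Of them 9 stood apart as lower in both batches, edgeR called 0 and DESeq2 3. Of all genes tested, 7.87% were lower at that unadjusted p, 6.32% stood apart as lower and DESeq2 called 1.35% lower. Gpihbp1, which holds lipoprotein lipase on capillaries, stood at 74.2, 77.4, 44.0, 49.3 and 46.9 CPM and at 68.6, 92.1, 85.2, 92.9 and 65.6 CPM (difference −0.61, adjusted p = 0.155, edgeR). In batch 2 the tumor-bearing lung was just below the lowest normal one. Plat, tissue plasminogen activator, had −1.26, Flt1, a decoy receptor of VEGF, −0.89 and Emcn −0.54. The endothelial genes were shifted by −0.54 and −0.92 (medians) between the libraries of the same normal mice, batch 2 minus batch 1, and their medians were −0.29 within batch 1 and −0.22 within batch 2.

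Neutrophils reach the lung in mice with mammary tumors, and calgranulins are among their most abundant transcripts. Of 15 tested neutrophil surface and cytokine genes 13 had positive differences (median 0.74; 0.98 within batch 1 and 0.46 within batch 2), 7 were higher and 0 lower at an unadjusted p under 0.05, edgeR called 0 and DESeq2 3. Csf3r, the receptor of G-CSF, stood at 5.70, 6.07, 59.7, 29.3 and 29.2 CPM in batch 1 and at 11.3, 6.85, 13.1, 4.07 and 33.8 CPM in batch 2. No normal library exceeded 13.1 CPM and no tumor-bearing one was below 29.2 CPM (difference 2.46, SE 0.41, adjusted p = 0.112, edgeR; 0.0298 in the limma voom fit of 10 libraries). Il1b, an inflammatory cytokine, stood at 2.34, 3.90, 18.9, 6.87 and 10.3 CPM and at 6.18, 3.84, 3.78, 1.23 and 19.8 CPM, also without overlap (difference 2.32, adjusted p = 0.163, edgeR). Slfn4 had 2.52, Cd177 1.35 and the chemokine receptor Cxcr2 1.08.

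Of 12 tested neutrophil calgranulins and granule proteins 11 had positive differences (median 0.46, −0.02 on log2 of TPM plus 1) and 5 were higher at an unadjusted p under 0.05. S100a8 stood at 0.781, 0.906, 13.8, 6.21 and 6.66 CPM in batch 1 and at 7.96, 8.96, 14.6, 4.16 and 32.1 CPM in batch 2. It was apart in each batch, but the same normal mice were 3.09 and 3.08 higher on the log2 scale in batch 2 than in batch 1, beside a difference of 3.06 between the groups within batch 1. S100a9, its partner, had 2.67, Mmp9, a gelatinase, 1.51 and Retnlg 2.15, and their same-mouse shifts were 0.82 to 2.57. The shift of Csf3r between libraries of a mouse was 0.96 and 0.17. Of the 10 neutrophil markers, Ly6g (0 to 0.188 TPM), Camp (0 to 0.0296 TPM), Ngp (0 to 0.0373 TPM) and Mmp8 (0.0141 to 0.0610 TPM) were near 0 in lungs, while Csf3r reached 1.39, Retnlg 1.13, Ltf 3.22 and S100a9 17.2 TPM. The Ltf value is of tumor-bearing lung 6879 alone. Tumor-bearing lungs 6880, 6881 and 6877 had 0.0736, 0.125 and 0.470 TPM of Ltf, and normal lungs 0.244 to 0.984 TPM. The 10 neutrophil markers summed to 2.54 and 3.34 TPM in normal lungs of batch 1 and to 6.48 to 14.3 TPM in its tumor-bearing lungs. In batch 2 they summed to 4.28 to 14.3 TPM in normal lungs and to 29.3 TPM in the tumor-bearing lung. S100a8 and S100a9 made up 8.80 and 17.2 TPM of the 29.3 in tumor-bearing lung 6877, and 4.16 and 7.71 TPM of the 14.3 in normal lung 6887. The full neutrophil lists went the other way on TPM in batch 1. Surface and cytokine genes summed to 11.96 and 11.04 TPM in normal lungs and to 7.998 to 9.034 TPM in tumor-bearing lungs. Calgranulins and granule proteins summed to 53.74 and 43.3 TPM, against 33.17 to 41.08 TPM. In batch 2 both sums were highest in the tumor-bearing lung, at 12.93 and 59.33 TPM. Normal lungs of batch 2 reached at most 10.05 and 51.8 TPM. The part of neutrophils in the results was not tested.

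Factors tied to the premetastatic niche prepare the lung for tumor cells in mouse models. Of 30 tested lung premetastatic niche factors 14 had positive and 16 negative differences (median −0.03). At an unadjusted p under 0.05, 3 were higher and 3 lower, beside 6.13% and 7.87% of all genes tested. The higher ones are S100a8, S100a9 and Mmp9 of the neutrophil list, and the lower ones Flt1, Angptl4 and the matrix protein Thbs1 (−0.68). The matrix genes Fn1 and Lox had −0.25 and −0.01, the chemoattractant Cxcl12 −0.10 and Vegfa 0.22, and these 4 were named with their values in view. Saa1, Saa3, Prok2, Ccl2 and Ereg were below the filter on low counts. Of 30 chemokines and cytokines listed 12 were tested, 10 with negative differences (median −0.26), among them Ccl9 (−0.89), Ccl6 (−0.65), Cxcl14 (−0.35), Cxcl16 (−0.31) and Tgfb1 (−0.40). Cxcl1, Il6, Tnf and Csf3 were below the filter.

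Lymphocyte lists leaned to positive values with few members past an unadjusted p under 0.05. Of 18 B cell and plasma cell genes 15 were positive (median 0.50, −0.02 on log2 of TPM plus 1), 3 of them at an unadjusted p under 0.05. The IgE receptor Fcer2a had 0.91 and Mzb1 of plasma cells 1.02, while Cr2 had −1.32 and stood at 15.5 and 18.7 CPM in normal lungs 6886 and 6888 of batch 1 and at 1.08 and 0.548 CPM in the same mice in batch 2. Ighd had 0.61. Of 12 natural killer and cytotoxic granule genes 10 were positive (median 0.41, −0.02 on log2 of TPM plus 1) and 2 at an unadjusted p under 0.05, with Nkg7 at 0.88, Eomes at 0.91, Klrd1 at 0.88, Tbx21 at 0.47 and Gzma at 0.39. On TPM in batch 1, tumor-bearing lungs lay below normal lungs for Tbx21 and Gzma, overlapped for Nkg7 and Eomes and lay above for Klrd1. In batch 2 the tumor-bearing lung was highest on TPM for Nkg7, Eomes, Tbx21 and Gzma. Of 18 T cell genes 14 were positive (median 0.24, −0.14 on log2 of TPM plus 1). Foxp3, the factor of regulatory T cells, had 0.95, Cd8a 0.62, Cd28 0.55, Bcl11b 0.37 and Lef1 −0.58. No member of the 3 lists passed with edgeR, with 6 higher and 2 lower at an unadjusted p under 0.05 and 1 called higher by DESeq2.

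Of 27 tested type I interferon-stimulated genes 18 were positive (median 0.21, −0.17 on log2 of TPM plus 1) and 4 higher at an unadjusted p under 0.05, with Mx1 at 1.23, Oas3 at 1.03, Oas2 at 1.11, the RNA sensor gene Ddx58 at 0.44 and Ifih1 at 0.39. Of 17 interferon gamma-inducible genes 11 were positive (median 0.18, −0.16 on log2 of TPM plus 1), beside 8619 of all 16727 genes tested. Tap1, a peptide transporter for MHC class I, stood at 28.2, 15.6, 46.2, 32.7 and 36.0 CPM and at 16.1, 15.1, 16.5, 15.4 and 30.2 CPM, apart in each batch on CPM but not on TPM (difference 0.84, adjusted p = 0.194, edgeR). Iigp1 had 0.69, Gbp4 0.44, the checkpoint ligand Cd274 0.33 and the factor Irf1 −0.42. On TPM, tumor-bearing lungs of batch 1 lay below its normal lungs for Cd274 and Ifih1, while in batch 2 Ifih1 was apart as higher. edgeR called 0 genes of both lists, with 6 higher and 1 lower at an unadjusted p under 0.05. DESeq2 called 0 type I interferon-stimulated genes and 1 interferon gamma-inducible gene, which was higher.

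Among macrophages, 13 of 17 tested alveolar macrophage genes had negative differences; the median was −0.45 in batch 1 and 0.18 in batch 2. The libraries of the same normal mice shifted by 1.24 and 1.46 (medians of the list) from batch 1 to batch 2. Ear1 stood at 8.04, 10.2, 1.80, 2.44 and 2.67 CPM in batch 1 and at 25.3, 35.9, 34.1, 33.6 and 37.4 CPM in batch 2 (difference −1.06, adjusted p = 0.281, edgeR), and Ear2, Chil3, Ccl6 and Car4 had −0.57, −0.50, −0.65 and −0.39. Of 19 monocyte and interstitial macrophage genes 10 were positive and 9 negative (median 0.02, −0.13 with no scaling factors and −0.12 on log2 of TPM plus 1), 6 higher and 2 lower at an unadjusted p under 0.05. The fractalkine receptor Cx3cr1 had 0.87, Spn 0.52, Eno3 1.41, Apoe −0.45 and Pltp −0.33. On TPM, tumor-bearing lungs of batch 1 lay below its normal lungs for Spn.

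Alveolar type 2 cells secrete surfactant, and fibroblasts lay down the matrix between alveoli. Of 18 alveolar type 2 cell genes 7 were positive and 11 negative (median −0.13; −0.43 and 0.26 within batches). Sftpc, the surfactant protein, stood at 5089, 4442, 3465, 2705 and 2702 CPM and at 8012, 8146, 9572, 8444 and 7758 CPM (difference −0.52, adjusted p = 0.248, edgeR). S100g had −0.71, Lyz2 −0.40, Lamp3 −0.32 and the complement gene Hc 0.56. Of 20 fibroblast genes 7 were positive and 13 negative (median −0.14). The collagen gene Col1a1 had 0.62 and Col5a1 0.34, while Dpt had −0.46, Gpx3 −0.35 and Inmt −0.26. Col1a1 differed by −1.68 and −1.12 on the log2 scale between the libraries of the 2 repeated mice, batch 2 minus batch 1.

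Of 43 ribosomal protein genes 40 had negative differences (median −0.42), 28 were lower at an unadjusted p under 0.05, edgeR called 0 and DESeq2 11. Rpl11 stood at 86.3, 80.4, 23.0, 37.0 and 29.8 CPM in batch 1 and at 137, 164, 175, 153 and 114 CPM in batch 2, with Rps3 (−0.92), Rpl36 (−1.17), Rpl13 (−0.66) and Rps15 (−0.56) also lower in every tumor-bearing library of batch 1. Processed copies of these genes make single values uncertain. The same normal mice were higher by 0.83 and 1.06 (medians of the list) in batch 2. Protein-coding shares, given above, moved with group in batch 1 as well, and their part in the values of all these lists was not tested.

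**Figure D4:**
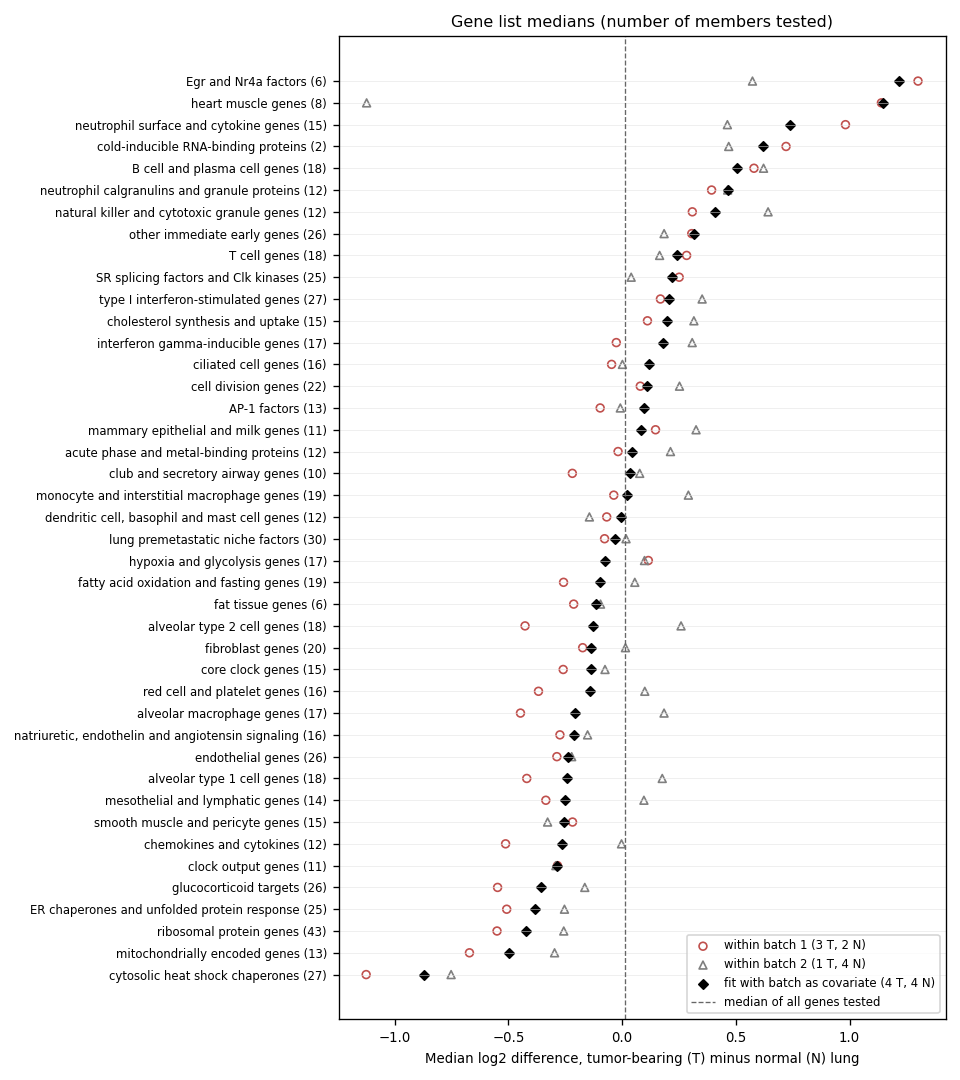
Median log2 difference, tumor-bearing minus normal lung, of each gene list, with the number of members tested in brackets; diamonds are the fit with batch as covariate, circles and triangles the differences of mean log2 CPM within batch 1 and batch 2, and the dashed line the median of all genes. Cytosolic heat shock chaperones are lowest in the fit at −0.87 and are at −1.13 and −0.75 within batches, whereas heart muscle genes are at 1.15 in the fit and −1.12 within batch 2; on log2 of TPM plus 1 the medians of the B, T and natural killer cell, interferon, splicing factor and other immediate early lists turn negative.

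Heart muscle transcripts marked single libraries. Myh6, the atrial and ventricular myosin of the mouse heart, stood at 702 CPM in tumor-bearing lung 6879 and at 398 CPM in the batch 2 library of normal lung 6886, and at 4.57 to 11.7 CPM in the other 8 libraries, the batch 1 library of normal lung 6886 included. Myl4, Tnnt2, Actc1 and Ryr2 were high in the same 2 libraries (47.2 and 59.4 CPM of Myl4 against 0.925 to 3.92 CPM). Their differences, 3.51 for Myh6, 2.23, 2.48, 0.65 and 1.65, have no test past the threshold, and the median of the 8 tested heart muscle genes, 1.15, was −0.07 without tumor-bearing lung 6879 and −0.01 on log2 of TPM plus 1. Of 11 tested mammary epithelial and milk genes 7 were positive and 4 negative (median 0.08, −0.05 with no scaling factors and −0.12 on log2 of TPM plus 1), with 0 at an unadjusted p under 0.05 in either direction. Among them Csn3 had 1.01, Elf5 0.35, Areg 0.61, Pgr 0.40 and Krt8 −0.40, and Trps1, a mammary marker at 4.73 to 6.27 TPM in tumors, stood at 0.153 to 0.571 TPM in tumor-bearing and 0.322 to 0.786 TPM in normal lungs.

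Among the protein-coding genes with the smallest p, 7 belong to no list above. Npc1, which exports cholesterol from lysosomes, stood at 44.7, 64.0, 119, 92.0 and 107 CPM and at 48.9, 50.0, 50.6, 60.5 and 104 CPM. No normal library exceeded 64.0 and no tumor-bearing library was below 92.0 CPM, and the difference was 0.94 (SE 0.16, adjusted p = 0.112, edgeR; 0.0212 in the limma voom fit of 10 libraries). Herc3, a ubiquitin ligase of the HERC family, had 0.96, Fancc, of the Fanconi anemia core complex, 1.09, Pcnx3 0.89 and Rfc5, a clamp loader of replication, 0.83. The endocytic adaptor Fcho1 had 1.63, at 1.25, 1.81, 4.50, 6.54 and 4.22 CPM and 4.10, 2.47, 3.43, 3.12 and 9.10 CPM. Erh, a small conserved nuclear protein, stood at 10.5, 11.0, 5.40, 4.43 and 3.33 CPM and at 12.8, 17.7, 14.8, 15.1 and 6.70 CPM (difference −1.25, adjusted p = 0.112, edgeR). All 7 were apart in both batches on CPM, but on TPM Erh alone was. On log2 of TPM plus 1 the difference of Npc1 was 0.17 (adjusted p = 0.533, limma).

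The difference between groups was itself tested against batch, with an interaction term that rests on tumor-bearing lung 6877, the only one of batch 2. The interaction passed for 11 genes (0.0658% of those tested), and 5 of the 11 are pseudogenes or small nucleolar RNAs. Of the protein-coding ones, Grin2b, a glutamate receptor subunit, stood at 111, 65.5, 4.76, 0.661 and 2.00 CPM in batch 1 and at 73.3, 1.19, 3.17, 2.18 and 14.7 CPM in batch 2, and Agtrap, which binds the angiotensin receptor, at 76.7, 50.2, 23.7, 23.5 and 25.3 CPM and at 86.2, 103, 32.6, 26.7 and 85.9 CPM. Normal lungs 6887 and 6893 were below both repeated mice in Agtrap and below normal lung 6886 in Grin2b. Fos, Egr1, Chordc1 and Npr3 were not among the 11. Their interactions, batch 2 minus batch 1 on the log2 scale, were −0.95, −0.35, 0.12 and 0.17 (edgeR, adjusted p = 0.463, 0.765, 0.929 and 0.902). With 1 tumor-bearing library in batch 2 this does not show that the effects were alike.

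**Figure D5:**
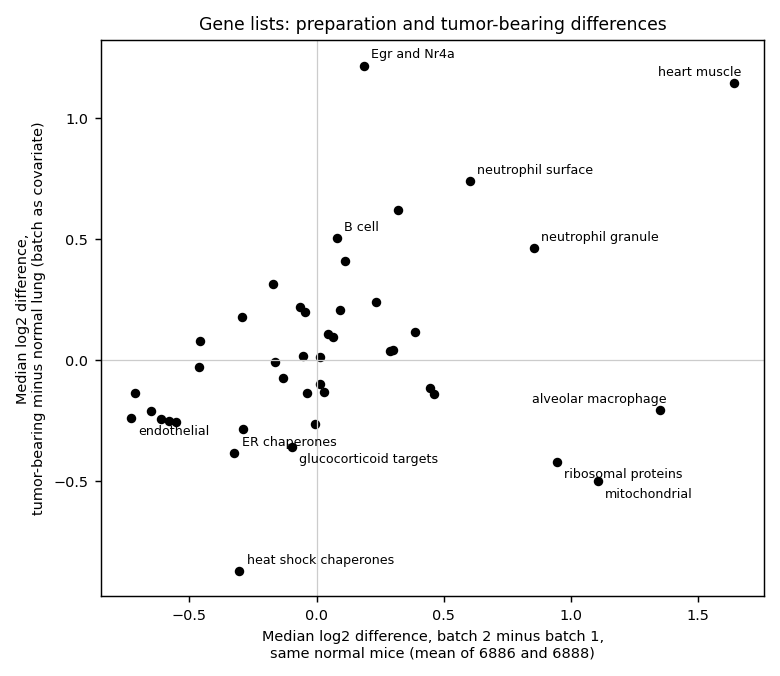
Each point is 1 gene list: the horizontal axis is the mean, over normal mice 6886 and 6888, of the median log2 difference between their batch 2 and batch 1 libraries, and the vertical axis the median log2 difference of tumor-bearing minus normal lung in the fit with batch. Ribosomal protein, mitochondrial and alveolar macrophage lists lie to the right, shifted by 0.83 to 1.46 in single mice, heart muscle genes lie farthest right (2.88 and 0.41), and the heat shock chaperone list lies lowest with shifts of −0.29 and −0.32.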

How the data were processed

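RNA of 13 whole-tissue libraries (10 of lung from 8 mice, 3 of Met1 tumors) was sequenced after ribosomal depletion, as single reads of 75 bases from 100 ng of RNA of 20 mg of frozen tissue, per the labels' protocols. Fragmentation followed RNA quality, whose value for each library is not given in the sources used here. The deposited tables hold an estimated count and a TPM value for each of 46679 gene IDs, made by the authors with Salmon on mm10, per the submitters' processing notes, which also name DESeq2 1.18.1; whether strand was used is not given in the sources used here. Of these IDs 46269 were named from GENCODE M21 and 410 were not.

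Estimated counts were rounded. Libraries held 8321037 to 13982903 counts, so genes at a few counts are imprecise. The main fit used edgeR 4.0.16 (R 4.3.3; filterByExpr, TMM factors, glmQLFit and glmQLFTest) on 8 lungs with preparation batch as covariate, 5 residual degrees of freedom and a biological coefficient of variation of 0.263. CPM per library uses TMM factors computed over all 10 lung libraries, whereas the fit used factors of its 8 lungs. A prior count of 2 entered log2 CPM. Alternatives were limma 3.58.1 (voom on 8 or 10 libraries, log2 of TPM plus 1 or 0.1), DESeq2 1.42.0, other filters and scalings, single batches and each mouse left out. The libraries of 1 mouse correlated at 0.0284 in the 10-library fit. Near-identical copies were found with BLAST 2.17.0 (identity of 95% or more over 300 or more bases). The fits were tested on simulated data.

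Named genes are those past the threshold, the 12 protein-coding genes of smallest p in each direction with a mean log2 CPM of 1 or more, up to 5 members of smallest p per described list and whole lists of up to 7, and defining markers. Values of 1 named gene are not reported here. The 42 lists and their members were chosen with earlier results of these data known, so their directions are descriptions and not independent evidence.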

Additional observations from a re-analysis of the deposited data

Results flagged for a closer look

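In 286 groups of 4 libraries (4 tumor-bearing lungs, or 4 normal lungs with each mouse once, for each of the 143 named genes) 29 held 1 library far from the other 3. Chance flags about 1 in 20 groups, and genes of 1 list are not independent.

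Tumor-bearing lung 6879 stood apart for heart muscle genes: Myh6 at 702 CPM against 8.36 to 11.1 CPM in the other tumor-bearing lungs, Tnnt2 at 58.0 CPM, Myl4 at 47.2 CPM and Ryr2 at 42.2 CPM. It was also above the others for Nr4a1 (92.6 against 40.7 to 49.1 CPM) and Csf3r (59.7 against 29.2 to 33.8 CPM).

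Tumor-bearing lung 6877, the only one of batch 2, stood apart most often. It was higher for the macrophage and alveolar type 2 genes Chil3 (414 CPM), Ccl6 (101 CPM), Ear2 (42.3 CPM), Ear1 (37.4 CPM), Sftpc (7760 CPM), Lyz2 (1920 CPM), Lamp3 (207 CPM) and S100g (31.0 CPM), and for the ribosomal protein genes Rps3 (469 CPM), Rps15 (371 CPM), Rpl13 (220 CPM), Rpl36 (176 CPM) and Rpl11 (114 CPM). The normal lungs of batch 2 were high for these genes as well. It was also higher for Rfc5 (23.1 CPM) and lower for Ccn1 (73.4 against 127 to 137 CPM). All normal lungs of batch 2 were lower still for Ccn1.

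Tumor-bearing lung 6880 was above the others for Ifih1 (28.8 CPM) and Flt1 (206 CPM). Among normal lungs, 6887 was lower for Cacybp (20.6 CPM) and higher for S100a9 (30.8 against 2.45 to 4.07 CPM) and Retnlg (5.63 CPM), 6893 was higher for Npas2 (1.14 CPM), 6886 for Tap1 (28.2 CPM) and 6888 for Emcn (42.1 CPM).

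The effect differed between preparation batches for 11 genes by edgeR's interaction term (adjusted p = 0.00237 for Gm5641 and 0.048 for the rest). The fitted differences of the effect, batch 2 minus batch 1 on the log2 scale, were 12.4 for Gm5641, 10.2 for Rab11b-ps2, 7.72 for Grin2b, 6.13 for Snord49a, 5.91 for mt-Tm, 5.65 for Snord49b, 4.96 for Gm42826, 2.91 for Agtrap, 2.80 for Gm6055, −6.78 for Cnga1 and −9.76 for Gm5269. Gm5641 was at 0 in the 3 tumor-bearing lungs of batch 1 and at 17.4 to 50.4 CPM in the other libraries. Rab11b-ps2 was also at 0 in those 3 lungs, and Gm5269 was at 0 in tumor-bearing lung 6877, so the fitted values of these 3 genes depend on the prior count and are no bounds. All 11 rest on tumor-bearing lung 6877 alone in batch 2.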

How the results depend on the processing

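No paired analysis was possible because the tumor-bearing and normal lungs are different mice and share no mouse number. The edgeR counts of 2 higher and 4 lower genes became 11 and 28 with 10 libraries and the mouse as a random effect, 135 and 226 with DESeq2, 134 and 311 with DESeq2's own filter, 92 and 183 with no filter, 10 and 29 in batch 1 alone, 0 and 1 in batch 2 alone, 1 and 0 when the repeated mice enter by batch 2, 1 and 1 with repeats summed, 1 and 0 with no batch term, 4 and 4 at a mean count of 10 or more, 2 and 7 with no scaling factors, and 2 and 2 with protein-coding genes alone. limma called 4 and 61 on log2 of TPM plus 0.1, 4 and 86 on log2 of TPM plus 1, and 0 and 3 there with no filter. The counts at an unadjusted p under 0.05 were 54 higher and 5941 lower on log2 of TPM plus 0.1. The median of all genes was 0.01 in the main analysis, −0.13 with no scaling factors and −0.54 on log2 of TPM plus 0.1. With 1 mouse left out the counts ranged from 0 to 59 higher and from 0 to 162 lower; the highest are without tumor-bearing lung 6877, which leaves batch 2 with no contrast, and they were 7 and 9 without normal lung 6887, 2 and 2 without 6888 and 5 and 1 without 6893. The count of genes whose tumor-bearing effect differed between preparation batches, 11, became 97 with 10 libraries, 138 with DESeq2, 294 with no filter and 0 with protein-coding genes alone (edgeR; 1083 at an unadjusted p under 0.05), and 1 to 72 with 1 mouse left out, the highest without tumor-bearing lung 6880; without 6877 it could not be fitted. The cause was not tested. Of the 143 named genes 103 kept their sign in every alternative run, and of 3557 pairs of a gene and an alternative 3158 kept direction and call, 211 were newly called, 66 lost a call and 122 changed sign; 0 called genes reversed. Of 1050 pairs of a list median and an alternative 836 stayed within 1 SD of the main value. That SD is the spread of the list's value between libraries of 1 group and batch.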

Other observations

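The remaining lists are given by their counts. Of 13 mitochondrially encoded genes 10 had negative differences (median −0.50), 7 were lower at an unadjusted p under 0.05 and 8 stood apart as lower in both batches. The libraries of the same normal mice differed by 1.20 and 1.01 (medians of the list), batch 2 minus batch 1. Of 18 alveolar type 1 cell genes 16 were negative (median −0.24), with −0.42 in batch 1 and 0.18 in batch 2, and of 14 mesothelial and lymphatic genes 11 were negative (median −0.25), with −0.34 and 0.10. Of 15 smooth muscle and pericyte genes 11 were negative (median −0.26), 4 of them at an unadjusted p under 0.05, with −0.22 and −0.33 in the batches. Of 15 cholesterol synthesis and uptake genes 11 were positive (median 0.20, −0.24 on log2 of TPM plus 1) and 3 were higher at an unadjusted p under 0.05.

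Other lists lay near the median of all genes. Fatty acid oxidation and fasting genes had 6 positive and 13 negative members (median −0.10), hypoxia and glycolysis genes 8 and 9 (median −0.07), red cell and platelet genes 5 and 11 (median −0.14), fat tissue genes 2 and 4 (median −0.11) and dendritic cell, basophil and mast cell genes 6 and 6 (median −0.01). Cell division genes had 13 and 9 (median 0.11), ciliated cell genes 11 and 5 (median 0.12), acute phase and metal-binding proteins 8 and 4 (median 0.04) and club and secretory airway genes 5 and 5 (median 0.04), and these 4 medians were negative with no scaling factors and on log2 of TPM plus 1. edgeR called 0 genes of these 14 lists. Over the 14 lists, 9 members were higher and 27 lower at an unadjusted p under 0.05, and DESeq2 called 1 higher and 7 lower.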
